A study of Mus musculus with 6 samples.

Results

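The natural killer lectin-like receptor genes Klrc1, Klrc2, Klrc3, Klrd1, Klrk1, Klre1, Klri1 and Klri2 and the adaptor genes Hcst and Tyrobp were followed in mouse γδ T cells that did or did not express the transcription factor Eomes. These 10 genes were taken by name from the array design with all of their probes, 14 of the 39429 probes and 10 of the 30342 names on the array. The Eomes-positive samples were spleen cells sorted as CD3+, TCRγδ+, TCRβ- and GFP+, and the Eomes-negative samples were the GFP- cells of the same gate. Every mouse, in both groups, carried the Eomes-IRES-GFP reporter allele on a C57BL6 background, so GFP reports the Eomes locus and no sample came from a mouse without the reporter. Cells bearing B220, CD4 or CD8β had been depleted beforehand. Each of 3 independent sorts pooled the spleens of 4 to 6 mice, aged 9 weeks in sort 1, 9.5 weeks in sort 2 and 7.5 weeks in sort 3, and gave 1 array per group. RNA input was 9 ng in sorts 1 and 2 and 4 ng in sort 3.

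The NKG2 receptors are C-type lectin-like proteins first known from natural killer (NK) cells and also carried by subsets of T cells. CD94, the product of Klrd1, pairs with NKG2A (Klrc1), which inhibits through its own cytoplasmic motifs, or with NKG2C (Klrc2) or NKG2E (Klrc3), which signal through the adaptor DAP12 (Tyrobp), and these pairs bind the non-classical MHC class I molecule Qa-1. NKG2D (Klrk1) is an activating receptor that signals through DAP10 (Hcst) and, in mice, also through DAP12, while KLRE1 is a partner chain for the inhibitory KLRI1 and for the activating KLRI2.

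Levels are log2 intensities minus the 75th percentile of their array, and differences are Eomes-positive minus Eomes-negative levels on that log2 scale. A probe is called measured on an array if the scanner software marked 50% or more of its 4 spots as well above background. The brightest probe stood for a gene, and limma tested the 16413 genes with a measured signal on 3 or more arrays, with p-values adjusted over all of them and a threshold of 0.05. Different probes bind with different strength, so levels are compared between groups and not between genes. With 3 arrays per group the array number sets the precision, and fewer cells that express a gene cannot be told apart from less transcript per cell in these sorted pools.

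Between 47.7% and 56.6% of all probes were measured per array. Eomes itself had levels of 5.31, 4.96 and 4.48 in the Eomes-positive arrays and 0.72, 0.88 and -1.14 in the Eomes-negative arrays, so the groups did not overlap. CD3 genes of the sort gate were high in both, with Cd3d at 6.999 ± 0.062 in Eomes-positive and 7.061 ± 0.078 in Eomes-negative cells and Cd3g at 6.41 ± 0.38 and 6.48 ± 0.37 in the same order (SD, n = 3 each). The arrays of sort 2 stood apart in neutrophil markers. Summed over 9 neutrophil markers, led by S100a9 and S100a8, the signal relative to the 75th percentile was 254 in Eomes-positive array 2 and 216 in Eomes-negative array 2, against 1.71 and 1.74 in the other Eomes-positive arrays and 1.99 and 1.86 in the other Eomes-negative arrays. Red cell markers differed between sorts too. Summed over 5 of them, the signal in sorts 1, 2 and 3 was 45.1, 359 and 475 in the Eomes-positive arrays. In the Eomes-negative arrays it was 44.6, 386 and 290.

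The probes decide what these arrays can say of the 3 Klrc genes, so those in question are shown here, 5′ to 3′, as given in the scanner files. The array design assigns 1 probe named Klrc3 to transcripts of Klrc1, Klrc2 and Klrc3 together, and it lies at chr6:129589103-129589162 on the minus strand of the mm9 build. The 2 other Klrc3 probes are assigned to Klrc3 transcripts alone, at chr6:129591495-129591554 and, split over a longer span, within chr6:129591548-129592745. Capitals mark the 7 bases that both of these hold. The Klrc1 probe shown is assigned to Klrc1 transcripts alone and lies at chr6:129628315-129628374.
Shared probe of Klrc1, Klrc2 and Klrc3: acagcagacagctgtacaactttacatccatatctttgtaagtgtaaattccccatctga
Klrc3 probe 1: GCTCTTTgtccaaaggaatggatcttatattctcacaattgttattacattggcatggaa
Klrc3 probe 2: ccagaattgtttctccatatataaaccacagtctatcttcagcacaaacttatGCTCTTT
Klrc1 probe 2: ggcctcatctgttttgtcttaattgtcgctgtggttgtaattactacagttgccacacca

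The Klrc2 probe, at chr6:129610628-129610687 of mm9, was compared with the RefSeq promoter windows of the Klrc genes (250 bases before to 50 after a start, GRCm38.p6). All 60 of its bases matched the minus strand at chr6:129660610-129660669 of that build, which begins 73 bases upstream of 1 annotated Klrc2 start and 113 bases upstream of the other. The Klrc3 window held the same stretch with 2 mismatches, in capitals below, so the probe tells the genes apart by 2 of 60 bases, and the matched stretch lies upstream of both of those Klrc2 starts.
Klrc2 probe: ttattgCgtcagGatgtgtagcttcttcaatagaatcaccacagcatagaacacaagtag
Klrc3 window: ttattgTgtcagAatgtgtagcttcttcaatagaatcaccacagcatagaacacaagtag

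The probes of the KLRE1 and KLRI chains, whose transcripts differed most between the groups, are shown next. The design assigns the Klre1 and Klri1 probes to 1 gene each, while the second Klri2 probe carries the Klri2 name but is tied to a predicted transcript that the RefSeq table used here does not list. They lie at chr6:129534195-129534254 on the plus strand for Klre1, and on the minus strand at chr6:129666963-129667022 for Klri1 and chr6:129683058-129683117 for the second Klri2 probe (mm9).
Klre1 probe: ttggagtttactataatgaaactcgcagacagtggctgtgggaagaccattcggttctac
Klri1 probe: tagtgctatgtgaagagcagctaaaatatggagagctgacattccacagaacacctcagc
Klri2 probe 2: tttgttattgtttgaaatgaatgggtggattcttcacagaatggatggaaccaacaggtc

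The comparison asked which chains of these receptors differ between γδ T cells with and without Eomes expression. Transcripts of KLRE1 and of both KLRI chains and of NKG2A were 6.89-fold to 20.1-fold higher in Eomes-positive cells on the brightest probe of each gene, while those of CD94, NKG2D, DAP10 and DAP12 did not pass the test. Of the 10 genes, 9 were tested and 5 were higher, Klre1, Klri1, Klri2, Klrc1 and Klrc3 through the shared probe, and 0 were lower. Over all genes, 1.2% were higher and 1.57% were lower. With the sort as a block the same number was called, 5 higher and 0 lower, beside 3.66% and 4.33% of all genes. Without the shared probe, 4 were higher. Over the 9 tested genes, each measured on all 6 arrays, the median difference was 2.76, which is the value of the shared probe itself. Without that probe it was 1.79 over 8 genes, against -0.01 over all genes tested. By probe, 7 of the 11 tested were higher and 0 were lower, where 1.04% and 1.38% of all probes were. The 3 Eomes-positive arrays all lay above the 3 Eomes-negative arrays for 6 of the genes, the 5 called and Klrd1, and 8.52% of all genes did so. The exact permutation test of 3 against 3 arrays gave each of these 6 its smallest possible two-sided p of 0.1.

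**Figure D1:**
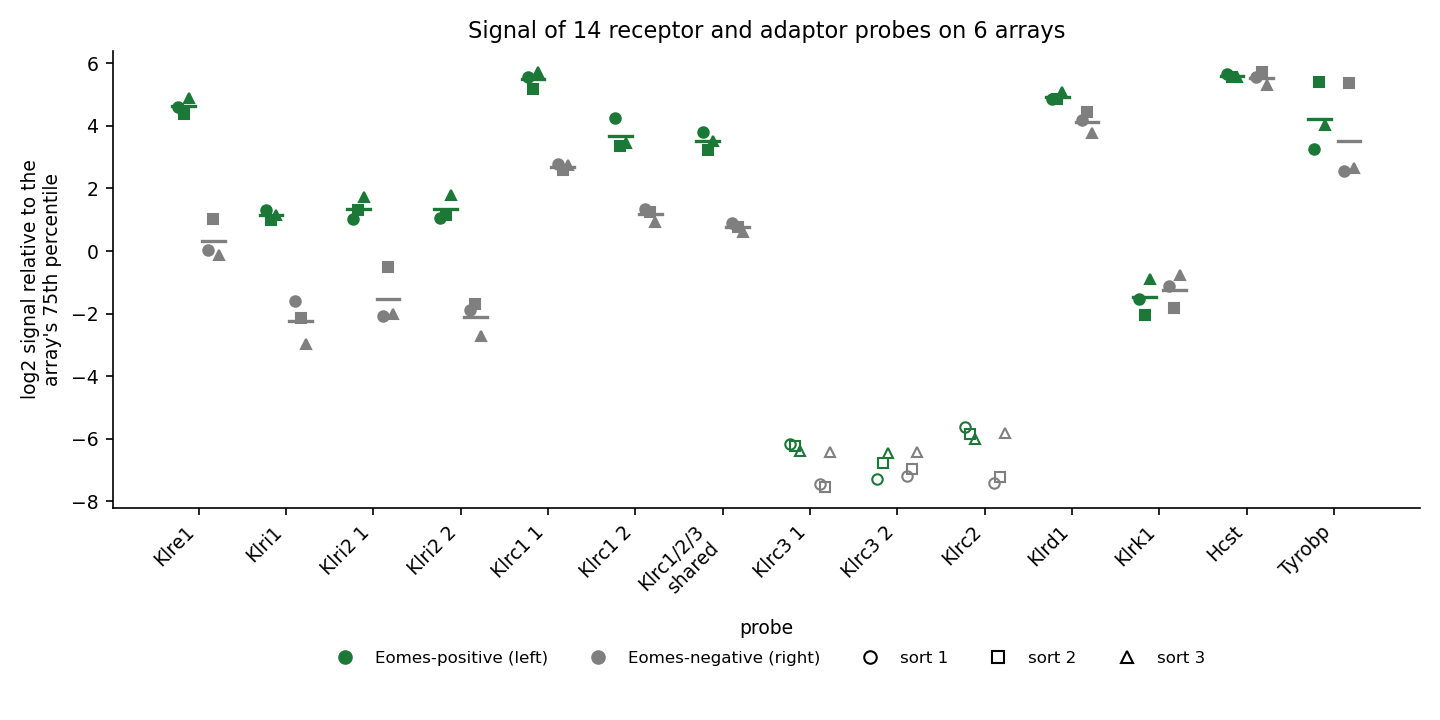
Level of each of the 14 probes (log2 signal relative to the array's 75th percentile) on every array, Eomes-positive on the left and Eomes-negative on the right of each probe, with circles for sort 1, squares for sort 2, triangles for sort 3 and a bar at the mean of 3. Open symbols mark the 3 probes measured on no array. Among measured probes, Klre1, Klri1, both Klri2 probes, both Klrc1 probes, the shared Klrc probe and Klrd1 have all Eomes-positive arrays above all Eomes-negative arrays. Klrc3 probe 1, measured on no array, does so by 0.035.

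The common partner chain of the KLRI receptors had the greatest difference. Klre1 had levels of 4.62, 4.40 and 4.91 in the Eomes-positive arrays and 0.02, 1.02 and -0.12 in the Eomes-negative arrays. The Eomes-positive arrays lay close together and far above the others, of which sort 2 was the highest. The log2 difference was 4.33 with an SE of 0.34 (20.1-fold, limma adjusted p = 0.00441), and Klre1 ranked 21 among all tested genes by positive difference. Within sorts 1, 2 and 3 the difference was 4.59, 3.38 and 5.02, and without sort 2 it was 4.81.

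KLRI1 is the inhibitory chain that pairs with KLRE1. Klri1 had levels of 1.31, 0.99 and 1.15 in the Eomes-positive arrays and -1.61, -2.14 and -2.98 in the Eomes-negative arrays. The groups did not overlap, and the Eomes-negative arrays were spread more widely than the Eomes-positive ones. The log2 difference was 3.39 (SE 0.36, limma adjusted p = 0.0113), or 10.5-fold, and it was 2.92, 3.12 and 4.13 in sorts 1, 2 and 3. The call was lost without Eomes-positive array 1 (difference 3.31, limma adjusted p = 0.0644), without Eomes-positive array 3 (3.39, adjusted p = 0.051) and without Eomes-negative array 2 (3.44, adjusted p = 0.0508).

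KLRI2 is the activating counterpart of KLRI1. The brighter Klri2 probe had levels of 1.02, 1.30 and 1.71 in the Eomes-positive arrays and -2.08, -0.50 and -2.02 in the Eomes-negative arrays. The groups did not overlap, and Eomes-negative array 2 lay above the other Eomes-negative arrays. The difference was 2.88 (SE 0.48, limma adjusted p = 0.0425), or 7.35-fold. The second Klri2 probe, shown above, had levels of 1.04, 1.16 and 1.79 in the Eomes-positive arrays and -1.88, -1.70 and -2.71 in the Eomes-negative arrays. Its difference was 3.42 (SE 0.34, limma adjusted p = 0.01 over all probes), and its assignment to Klri2 rests on the name in the design alone. On this probe Eomes-negative array 2 lay close to array 1. The call of the brighter probe was lost without each array in turn except Eomes-negative array 2, with differences of 2.61 to 3.04 and limma adjusted p-values of 0.132 to 0.146, with slide as a block (2.92, adjusted p = 0.141), and with no filter on dim probes (adjusted p = 0.0792).

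NKG2A, the inhibitory partner of CD94, was among the higher chains. Klrc1 had levels of 5.56, 5.17 and 5.74 in the Eomes-positive arrays and 2.79, 2.58 and 2.74 in the Eomes-negative arrays on its brighter probe, at chr6:129616237-129616296 (mm9), which the design ties to Klrc1 by name and to no RefSeq transcript. The gap between the groups was several times the spread within either of them. The difference was 2.78 (SE 0.19, limma adjusted p = 0.00299), or 6.89-fold. The Klrc1 probe shown above had levels of 4.26, 3.35 and 3.46 in the Eomes-positive arrays and 1.36, 1.24 and 0.92 in the Eomes-negative arrays, a difference of 2.52 or 5.72-fold (SE 0.29, limma adjusted p = 0.0152 over all probes). Both Klrc1 probes thus pointed the same way.

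NKG2E and NKG2C, the activating partners of CD94, had no measured signal on probes of their own. The shared Klrc probe had levels of 3.81, 3.23 and 3.52 in the Eomes-positive arrays and 0.90, 0.75 and 0.61 in the Eomes-negative arrays, a difference of 2.76 (SE 0.20, limma adjusted p = 0.00317). This is close to the difference of the Klrc1 probes, and the design assigns the probe to all 3 genes, so it gives no value for Klrc3 alone. Klrc3 probe 1 had levels of -6.16, -6.23 and -6.40 in the Eomes-positive arrays and -7.44, -7.54 and -6.43 in the Eomes-negative arrays, and Klrc3 probe 2 lay between -7.28 and -6.44 over all 6 arrays. The Klrc2 probe had -5.63, -5.84 and -6.01 in the Eomes-positive arrays and -7.42, -7.23 and -5.82 in the Eomes-negative arrays. None of the 3 probes was well above background on any array, and the Klrc2 probe matches sequence upstream of the annotated starts, so its dim signal sets no limit on transcripts that begin there. The highest level among them was -5.63, and the lowest level of any of the 11 measured probes was -2.98.

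CD94 itself, the chain that all NKG2A, NKG2C and NKG2E receptors need, was high in both groups. Klrd1 had levels of 4.86, 4.85 and 5.09 in the Eomes-positive arrays and 4.20, 4.43 and 3.78 in the Eomes-negative arrays. The groups did not overlap, but the gap between them was small beside that of Klrc1. The difference of 0.79 (SE 0.21, 95% interval 0.28 to 1.31) did not pass the test (limma adjusted p = 0.16), and with the sort as a random block it did (adjusted p = 0.0315). It was 0.66, 0.42 and 1.31 in sorts 1, 2 and 3.

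NKG2D and the adaptors showed overlapping groups. Klrk1 had levels of -1.53, -2.03 and -0.89 in the Eomes-positive arrays and -1.13, -1.83 and -0.78 in the Eomes-negative arrays, a difference of -0.23 (SE 0.40, 95% interval -1.21 to 0.74, limma adjusted p = 0.965). Its level followed the sort, lowest in sort 2 and highest in sort 3 in both groups. Within sorts 1, 2 and 3 the Klrk1 difference was -0.40, -0.20 and -0.11. With the sort as a block its SE was 0.10, and it did not pass the test (limma adjusted p = 0.251). Hcst, the DAP10 gene, had 5.67, 5.58 and 5.58 in the Eomes-positive arrays and 5.56, 5.73 and 5.32 in the Eomes-negative arrays, a difference of 0.07 (SE 0.16, 95% interval -0.32 to 0.47, limma adjusted p = 0.974). Of the genes without a call, Hcst had the narrowest interval in the fit without a block.

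DAP12 is also abundant in myeloid cells. Tyrobp had levels of 3.25, 5.40 and 4.04 in the Eomes-positive arrays and 2.57, 5.36 and 2.64 in the Eomes-negative arrays. Both arrays of sort 2 were far above the other arrays, and within sorts 1, 2 and 3 the difference was 0.68, 0.05 and 1.39. Its difference of 0.70 (SE 0.93, 95% interval -1.59 to 3.00) did not pass the test (limma adjusted p = 0.944). That SE includes the shift of sort 2 shared by both groups. With the sort as a block the SE was 0.28, and the difference did not pass either (limma adjusted p = 0.219). Without sort 2 the Tyrobp difference was 1.03 (SE 0.35), and within slide 1, on which 1 Eomes-positive array met 2 Eomes-negative ones, it was -0.72.

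Myeloid marker signal was also high on those arrays. Summed over 19 macrophage, monocyte and dendritic cell markers, it was 208 in Eomes-positive array 2 and 282 in Eomes-negative array 2, against 86.1 and 91.5 in the other Eomes-positive arrays and 87.3 and 87.2 in the other Eomes-negative arrays. All 19 were measured on both arrays of sort 2 and 14 or 15 on each other array. The brightest of them, Siglech and Itgam, did not follow this pattern. Together they made up most of the summed signal on the arrays of sorts 1 and 3. Siglech was at 6.10, 6.07 and 5.26 in the Eomes-positive arrays and 5.81, 6.13 and 5.44 in the Eomes-negative arrays, and Itgam was highest in sort 3. The complement gene C1qa, chosen after its values were seen, had -2.11, 2.05 and -1.42 in the Eomes-positive arrays and 1.65, 4.25 and -2.98 in the Eomes-negative arrays. It was highest in sort 2 in both groups. Within sort 1 the myeloid markers went both ways, with C1qa differing by -3.76 and Csf1r by -2.69, but Lyz1 by 0.487 and Lyz2 by 0.555. Fcer1g, the Fc receptor γ chain and another ITAM adaptor, had levels of 3.93, 5.40 and 4.65 in the Eomes-positive arrays and 3.87, 5.88 and 3.69 in the Eomes-negative arrays, again with sort 2 the highest in both groups. The part of other cells in the Tyrobp signal was not tested.

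**Figure D2:**
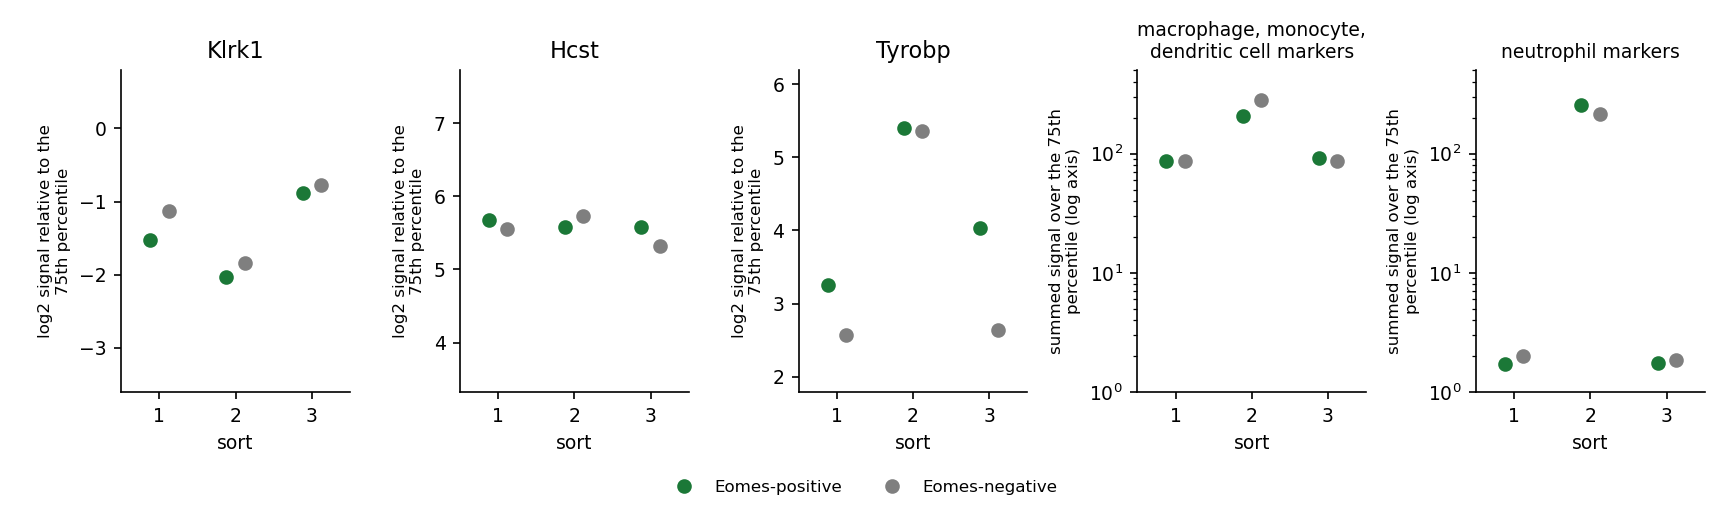
Level of Klrk1, Hcst and Tyrobp (log2 signal relative to the array's 75th percentile, with axes of equal length) and summed signal of macrophage, monocyte and dendritic cell markers and of neutrophil markers (relative to the 75th percentile, log axis) against the sort, Eomes-positive left of Eomes-negative within each sort, 1 point per array. Tyrobp reaches 5.40 and 5.36 in sort 2, where neutrophil markers reach 254 and 216, and Hcst stays between 5.32 and 5.73.

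Chains of 1 receptor were then set against each other within each array, as the difference of their log2 levels, with an exact two-sided permutation test of 3 against 3 arrays over 8 pairs. The difference of Klrc1 exceeded that of its partner Klrd1 by 1.99 ± 0.27 (SD over 3 sorts), with 2.11, 2.18 and 1.69 in sorts 1, 2 and 3. Against their partner Klre1 the difference of Klri1 was smaller, at -0.94 ± 0.71, and so was that of Klri2, at -1.45 ± 0.15. In these 3 pairs, and in the shared Klrc probe against Klrd1 (1.97 ± 0.34), the groups did not overlap, and each reached the smallest possible p of 0.1, with an adjusted p of 0.2, so none of the pairs passed the threshold, which 3 against 3 arrays cannot reach. Klri1 and Klri2 differed from each other by 0.51 ± 0.76 (exact p = 0.5), with groups that overlapped. For Klrk1 against Hcst the value was -0.31 ± 0.24 (exact p = 0.6), for Klrk1 against Tyrobp -0.94 ± 0.64 and for Hcst against Tyrobp -0.63 ± 0.47 (exact p = 0.5 each), all with groups that overlapped.

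The 8 receptor genes lie in the natural killer gene complex of chromosome 6, and the 12 probes there span about 149 kb in mm9. Along the chromosome the differences did not follow position. Starting from the Klre1 probe, the Klrd1 probe lies 14.4 kb and the Klrk1 probe 27.7 kb further on, and these neighbours had the differences 4.33, 0.79 and -0.23. The probes of Klrc1 follow at 82.0 and 94.1 kb, that of Klri1 at 132.8 kb and those of Klri2 at 144.9 and 148.9 kb, all of them higher in Eomes-positive cells. The array holds 1 other probe between the outermost of these, with no gene assigned, and it was measured on no array. The adaptor genes lie side by side on chromosome 7, with the Tyrobp probe within chr7:31200651-31202378 and the Hcst probe at chr7:31202736-31202795 of mm9.

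**Figure D3:**
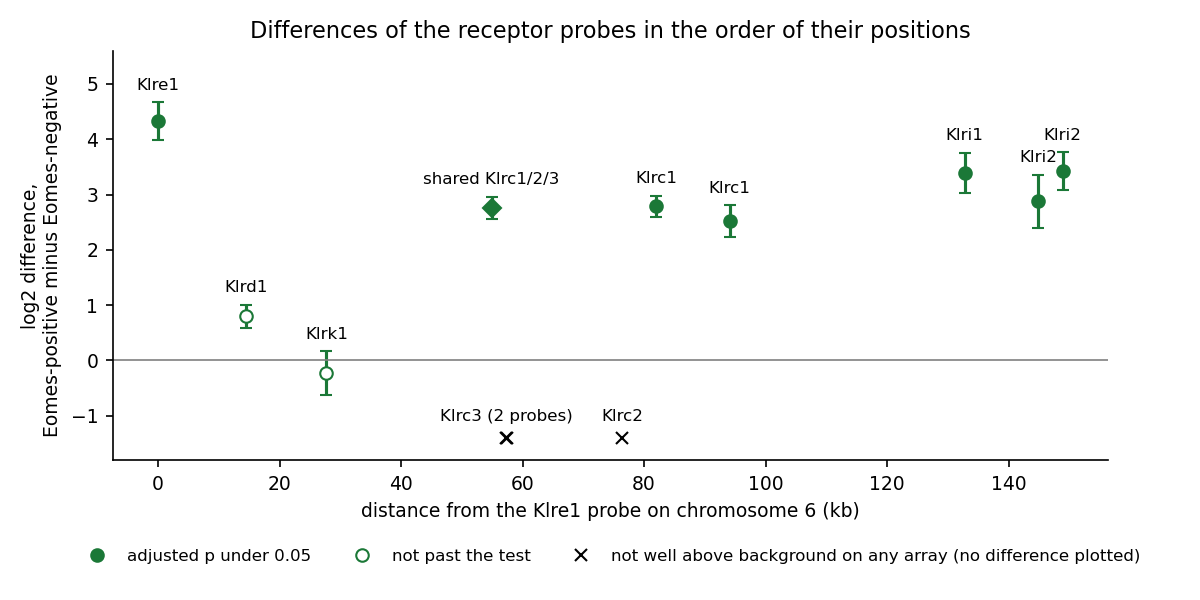
Difference between groups (Eomes-positive minus Eomes-negative, log2, mean ± SE of the fit over all probes, 3 arrays per group) against the distance of each probe from the Klre1 probe on chromosome 6 in kb. Filled points passed the test, open points did not, the diamond is the probe shared by Klrc1, Klrc2 and Klrc3, and crosses at the bottom mark the 3 probes measured on no array, which have no difference. Klrd1 at 0.79 and Klrk1 at -0.23 lie between Klre1 at 4.33 and the Klrc1 probes at 2.78 and 2.52.

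RefSeq promoter windows (GRCm38.p6, 250 bases before to 50 after a start) were given for 7 of the 10 genes, 9 windows in all, and were searched on both strands for the T-box half-site AGGTGTGA, because Eomes is a T-box factor. None of the 9 windows held it, and 1.28% of 32851 windows of all genes did. The shorter sequence GTGTGA, with which that half-site ends, was in 14.49% of all windows and in 2 of the 9. Both were windows of Klre1, and they hold the same match, 42 bases upstream of 1 annotated start and 31 bases downstream of the other. The window of the first of these, chr6:129578036-129578335 on the plus strand, is shown because Klre1 had the greatest difference, with the match in capitals.
Klre1 promoter: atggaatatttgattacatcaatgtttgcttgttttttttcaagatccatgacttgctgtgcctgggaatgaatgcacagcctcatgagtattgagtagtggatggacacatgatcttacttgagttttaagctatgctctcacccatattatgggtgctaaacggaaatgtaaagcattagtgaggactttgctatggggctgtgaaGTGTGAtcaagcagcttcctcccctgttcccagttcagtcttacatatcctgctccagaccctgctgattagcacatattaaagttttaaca

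Of the genes that act beside these receptors, 3 of the signalling genes were higher in Eomes-positive cells. A list of 35 ligand, signalling and adaptor genes had 34 on the array and 27 tested, of which 3 were higher and 0 were lower, with a median difference of 0.20, beside 1.2% and 1.57% of all genes. All 3 were among the 20 tested kinases, adaptors and enzymes downstream of DAP12 and DAP10. Fyn, a Src-family kinase, had levels of 2.04, 1.66 and 1.72 in the Eomes-positive arrays and 0.60, 0.45 and 0.27 in the Eomes-negative arrays, a difference of 1.37 (SE 0.17, limma adjusted p = 0.0193). Lat2, a membrane adaptor also called NTAL, had 1.32, 1.52 and 2.09 in the Eomes-positive arrays and 0.04, 0.38 and 0.07 in the Eomes-negative arrays, a difference of 1.48 (SE 0.24, limma adjusted p = 0.0423). Sh3bp2, an adaptor that binds Syk-family kinases, had 1.55, 1.67 and 1.71 in the Eomes-positive arrays and 0.37, 0.57 and -0.20 in the Eomes-negative arrays, a difference of 1.40 (SE 0.23, limma adjusted p = 0.0416). The groups did not overlap in these 3, nor in Lck, which had no call (difference 0.42, limma adjusted p = 0.317). Of all genes, 8.52% had every Eomes-positive array above every Eomes-negative array. The calls are sensitive to the fit: 0 of the 27 passed without any 1 array or sort, or with no filter on dim probes, and 1 passed with slide as a block.

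The kinases that bind phosphorylated DAP12 did not pass the test. Zap70 differed by -0.10 (SE 0.24) and Syk by 0.36 (SE 0.95), and the Syk levels of -2.73, -0.28 and -1.39 in the Eomes-positive arrays and -2.86, -0.06 and -2.56 in the Eomes-negative arrays were highest in sort 2, as for Tyrobp. Of the phosphatases recruited by inhibitory receptors, Ptpn6 (SHP-1) differed by -0.15 (SE 0.22) and Ptpn11 (SHP-2) by 0.07 (SE 0.18). The ITAM adaptor Cd247, the CD3 ζ chain, differed by -0.28 (SE 0.17). None of these 5 had a limma adjusted p below 0.702.

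Among the ligands, Qa-1 was high in both groups. H2-T23, which encodes Qa-1, had a level of 7.60 ± 0.44 in Eomes-positive cells and 7.36 ± 0.58 in Eomes-negative cells (SD, n = 3 each), a difference of 0.23 (SE 0.37, limma adjusted p = 0.962). Of the NKG2D ligand genes, Raet1b was measured on all 6 arrays at a low level, -4.49 ± 0.16 in Eomes-positive and -4.21 ± 0.49 in Eomes-negative cells (difference -0.28, limma adjusted p = 0.886). Ulbp1 was measured on 1 Eomes-positive array and 0 Eomes-negative arrays. Raet1a, Raet1c, Raet1e, H60a, H60b and H60c were not well above background on any array.

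**Figure D4:**
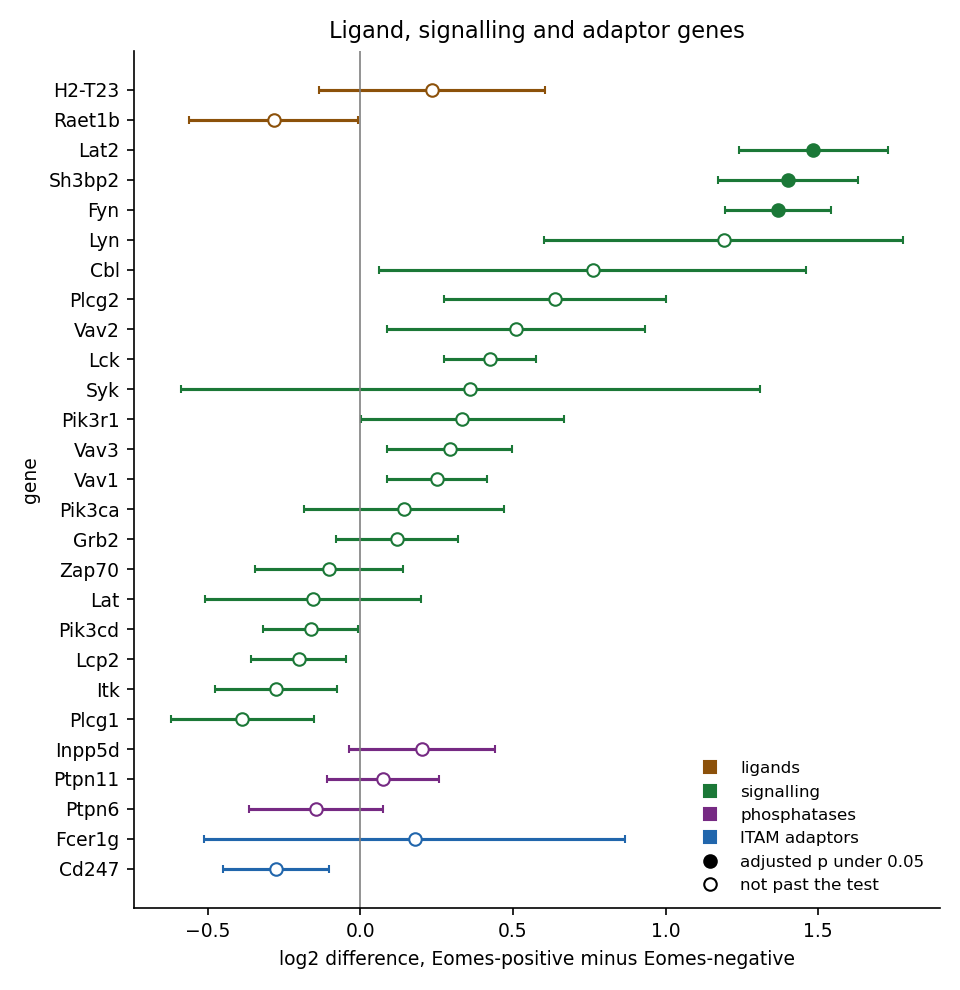
Difference between groups (Eomes-positive minus Eomes-negative, log2, mean ± SE of the fit, 3 arrays per group) for the 27 tested ligand, signalling, phosphatase and adaptor genes. Filled points, Lat2, Sh3bp2 and Fyn, passed the test, and open points did not.

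Markers of NK cells and type 1 innate lymphoid cells, which also carry these receptors and lack the CD3 and TCRγδ of the gate, were in part higher too. Of 13 tested, 4 were higher (Txk by 1.36, Klrb1c by 1.66, Klrb1b by 2.25 and Styk1 by 2.62) and 1 was lower (Osbpl3, -1.92). Over all genes 1.2% were higher and 1.57% lower. The median difference of the markers was 0.97. Blocking on the sort gave 6 higher and 1 lower marker, beside 3.66% and 4.33% of all genes. The calls gained were Cd160 (0.80, limma adjusted p = 0.0212) and Klra4 (0.97, adjusted p = 0.0344). Gzma, the brightest, was at 5.48 ± 0.72 in Eomes-positive and 5.62 ± 0.98 in Eomes-negative cells (SD, n = 3 each), and Ncr1, which encodes the NK receptor NKp46, had 0.30 ± 0.45 and -1.41 ± 0.84 in the same order (limma adjusted p = 0.184). The summed signal of the 14 on the array was 90.3, 138 and 95.4 in the Eomes-positive arrays and 66.3, 138 and 54.8 in the Eomes-negative arrays, so the groups overlapped, and Gzma, with levels of 6.27 in Eomes-positive and 6.74 in Eomes-negative array 2, carried most of the sum in sort 2. Within sort 2 Txk, Klrb1c, Klrb1b, Styk1 and Ncr1 differed by 1.42, 1.47, 1.496, 2.07 and 1.04. Gzma (-0.47), Osbpl3 (-2.02) and Itga2 (-0.18) were lower there in Eomes-positive cells, and the remaining tested markers were higher. The part of NK cells in the receptor differences was not tested.

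Of 7 tested markers of αβ T cells, 1 was lower, Cd8b1 (-2.86), and 0 were higher, beside 1.57% and 1.2% of all genes. With the sort as a block 3 were lower, Cd8b1, Themis (-0.96, limma adjusted p = 0.0214) and Foxp3 (-1.09, adjusted p = 0.0495), beside 4.33% of all genes. Foxp3 was dim, measured on 2 arrays of each group, and its groups overlapped. Their summed signal over 8 markers was 7.67 to 10.9 in the Eomes-positive arrays and 17.0 to 24.6 in the Eomes-negative arrays, so it ran opposite to the 5 higher receptor probes.

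Genes whose levels ran most like each receptor over the 6 arrays were named by Pearson's r among 10608 plain-symbol genes measured on all arrays. For Klre1 these were Grasp (0.998), Jdp2 (0.996) and Gzmm (0.996), the last the granzyme M gene. For Klrc1 they were Zfp512 (0.999), Tbc1d2b (0.998) and Sipa1l2 (0.998), and for Klri1 Parp8 (0.999), Ptpn22 (0.997) and Pde2a (0.997). Klri2 ran closest to Itgax (0.995), H2az1 (0.995) and Nagk (0.994), and the shared Klrc probe to Traf1 (0.999), Il2rb (0.997) and Tbc1d2b (0.997).

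The genes without a call had other neighbours. Klrd1 ran closest to Itgad (0.988), Bbs10 (0.983) and Kctd12b (0.982), and Klrk1 to Telo2 (0.989), Chd3 (0.988) and Smarca4 (0.985). Tyrobp ran closest to Coprs (0.995), Tnfsfm13 (0.993) and Entpd1 (0.992), and Hcst to Armc2 (0.982), Ccl4 (0.972) and Gpm6b (0.967). With 6 arrays in 2 groups such values are easily high: 193 genes exceeded 0.95 for Klrc1, 158 for Klre1, 188 for Klri1, 67 for Klri2, 35 for Klrd1, 70 for Klrk1, 42 for Tyrobp and 9 for Hcst.

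The 5 higher receptor probes kept their direction in all 3 sorts and within the 2 slides that held both groups, but lost their calls with fewer sorts. Arrays of 3 slides were used, slide 1 with Eomes-positive array 1 and Eomes-negative arrays 1 and 2, slide 2 with Eomes-positive array 2, and slide 3 with both arrays of sort 3. Within slide 1 the difference was 4.09 for Klre1, 3.18 for Klri1, 2.31 for Klri2, 2.87 for Klrc1 and 2.98 for the shared probe. Within slide 3, the pair with the lower RNA input, it was 5.02, 4.13, 3.73, 3.00 and 2.90 in the same order. Limma called 0 of the genes without sort 1, 0 without sort 2 and 0 without sort 3, when 2 arrays per group remained, and over all genes it then called 0, 0 and 41 higher genes, with 1354, 1267 and 1973 of all genes at an unadjusted p under 0.05. Without the sort 2 arrays, which had the highest neutrophil marker signal, the difference was 4.81 for Klre1, 3.52 for Klri1, 3.42 for Klri2, 2.88 for Klrc1 and 2.91 for the shared probe.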

How the data were processed

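Total RNA of sorted spleen γδ T cells was amplified once, labelled with 1 dye and hybridised to 6 one-colour Agilent arrays, per the labels. The scanner intensities were made with Agilent Feature Extraction 10.7.3.1, per the submitters' processing notes and the file headers, which record background subtraction and no scaling between arrays. The authors also deposited 1 table of scaled intensities, used as an alternative. It holds the scanner intensities times 1 constant per array, with 75th percentiles of 1497 to 1506.

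Spots marked as outliers were left out, log2 intensities of the 4 spots of a probe were averaged, and the array's 75th percentile, 1580.7 to 1684 in sorts 1 and 2 and 534.1 and 549.5 in sort 3, was subtracted. Probe names followed the RefSeq accession for 27508 probes. No positions were converted between builds, and no annotation of mm9 was used, so exons and untranslated regions are not stated.

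The group difference was fitted with the limma package (3.58.1, with statmod 1.5.0 and data.table version 1.17.8, under R 4.3.3). The model held group only, with Benjamini-Hochberg adjustment. It was run on simulated arrays with known changes, drawn independently of each other, so the pairing of arrays by sort was not simulated. Arrays of 1 sort pair by design, and their deviations from the group means correlated across genes (r = 0.812, 0.818 and 0.808 in sorts 1, 2 and 3). With the sort as a block, 600 genes were higher and 710 lower, against 197 and 257 without it. The p-values of the model of group only measure the spread between the 3 arrays of each group. Both groups came from the same 3 pools of mice, so that spread includes differences between sorts. Alternatives covered background, scaling, filter, probe choice, sort, slide and leaving out arrays. The 10 genes and all lists were chosen with earlier results of these data known. Named are these 10 genes, Eomes, up to 4 called genes of each list or its 2 brightest, the 3 genes most like each measured member, and called or the 2 brightest markers of cell types. Not every gene that this rule would name is printed. Sequences and plots used pandas 2.3.3, matplotlib 3.10.9 and Python 3.11.15.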

Additional observations from a re-analysis of the deposited data

How the results depend on the processing

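Over 20 other settings the differences of Klre1 (3.98 to 4.81), Klrc1 (2.65 to 2.94), Klri1 (2.93 to 3.71) and Klri2 (2.45 to 3.42) kept their sign, and these passed the test in 17, 17, 14 and 10 of them. The shared Klrc probe passed in 16 of 19, with 1.22 to 2.95, the lowest with the mean of the Klrc3 probes. Klrd1 (0.54 to 0.98) passed in 1, and Klrk1 (-0.53 to 0.04), Hcst (-0.04 to 0.19) and Tyrobp (0.12 to 1.62) in 0. With the sort as a replicate block, 5 of the 10 genes and 7 probes were higher, as without it, and no call of these genes changed. Leaving out 1 sort or array gave 0 to 4 higher genes and 0 to 6 higher probes, and for the signalling and ligand genes 0 in place of 3. In that list, 0 were called with no filter on dim probes and 1 with slide as a block. Of all genes, 197 higher became 92 with no filter, 600 with the replicate block, 1063 with the sort as a random block and 0 to 101 when 1 sort or array was left out. The 257 lower became 154 with no filter, 166 with genes measured on all 6 arrays, 710 with the replicate block, 1131 with the random block and 0 to 180 when 1 sort or array was left out. The leave-out fits hold fewer arrays. Leaving out sort 1, 2 or 3 left equal numbers of arrays but gave 0, 0 and 41 higher and 0, 0 and 28 lower genes. The cause of the changes in these counts was not tested. Median scaling moved the median of all genes to 0.09, under 0.1. Leaving out the shared Klrc probe was chosen after seeing the data and gave 4 higher genes and 6 higher probes. Within a slide only values, not tests, could be had. Signal over background limits what is said of Klrc2 and Klrc3, and groups of 3 arrays were not examined for outliers.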
